A study of Rattus norvegicus with 20 samples.

Results

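Transcripts of 9 genes of the chemokine system were followed in rat dorsal root ganglia (DRG), the clusters of sensory neuron cell bodies beside the spinal cord. The genes were taken by name from the count table: 6 chemokine ligands (Ccl2, Ccl7, Cx3cl1, Cxcl12, Cxcl14, Cxcl10) and 3 receptors (Ccr2, Cx3cr1, Cxcr4), out of 39747 genes listed. All 9 were found, each in a single row. The DRG came from 14 female Sprague-Dawley rats of wild-type (WT) genotype, 8 to 10 weeks old, that for 4 weeks ate either a diet rich in fish oil (FOD) or the control diet with soy oil (SOD). They then had either chronic constriction injury (CCI) of the left sciatic nerve, in which loose ligatures are tied around the nerve, or a sham exposure of the nerve (CT). Tissue was collected 1 week after CCI, although the labels describe 4 more weeks of diet after surgery. The left DRG of SOD rats gave 4 CT and 3 CCI libraries and those of FOD rats 3 CT and 4 CCI libraries, while the right, contralateral DRG of 3 SOD-CCI and 3 FOD-CCI rats gave 6 more (SOD-CCI-contra and FOD-CCI-contra). The sham rats have no contralateral library, so a contralateral DRG also differs from a sham DRG in its side.

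Chemokines are small secreted proteins that draw leukocytes along a concentration gradient and signal through receptors coupled to G proteins. Ccl2 and Ccl7 act on Ccr2 of monocytes, Cx3cl1 (fractalkine) on Cx3cr1 of macrophages and microglia, Cxcl12 on Cxcr4, and Cxcl10 on Cxcr3 of activated T cells. Ccl2 is a long-known product of injured sensory neurons, and Cxcl10 is a classical interferon target.

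Totals ranged from 22547190 to 54437581 counts per library. Levels are given as CPM, the count of a gene scaled to a common library total. Replicate 1 of FOD-CT, FOD-CCI and FOD-CCI-contra held transcripts of spinal cord glia: the 6 listed genes summed to between 2094 and 3446 CPM there and to between 8.12 and 67.2 CPM in the other 17 libraries. The library labelled FOD-CCI-contra replicate 1 had 0 counts of the DRG neuron genes Scn10a and Isl1, which were present in every other library. The library labelled FOD-CCI replicate 1 went against its injury label. Its Atf3, a transcription factor of injured neurons, stood at 3.27 CPM, against 202 to 501 CPM in the other 6 CCI libraries of the left side and 5.96 to 47.3 CPM in the 13 sham and contralateral libraries. SOD-CT replicate 1 was rich in skeletal muscle transcripts (77518 CPM over the listed genes), and FOD-CT replicate 2 (16331 CPM) and SOD-CT replicate 4 (4440 CPM) held fewer of them. FOD-CCI replicate 2 was rich in neutrophil and marrow genes (2395 CPM), followed by SOD-CT replicate 4 (641 CPM). Values of left DRG are also given without replicate 1 of SOD-CT, FOD-CT and FOD-CCI where this changed a call or moved a value. Since the tissue is a mixture, fewer cells of a type and less RNA per cell cannot be told apart.

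Compared per unit of gene length (FPKM), Ccl2 was the most abundant of the 9 transcripts in sham DRG of the SOD diet, at 54.2 ± 12.8 FPKM (SD, n = 4). Cxcr4 followed at 7.52 ± 3.45 FPKM, Cxcl12 at 7.39 ± 2.56 FPKM and Cxcl10 at 5.14 ± 1.86 FPKM. The lowest levels were those of the receptors Cx3cr1 (1.39 ± 1.64 FPKM) and Ccr2 (0.765 ± 0.931 FPKM). The range of Ccl2 did not overlap that of Cxcr4, while each later neighbour in the order overlapped the next: Cxcr4, Cxcl12, Cxcl10, Cxcl14, Ccl7, Cx3cl1, Cx3cr1, Ccr2. Ccl2 exceeded 80 counts in every library, whereas Ccl7, Ccr2 and Cx3cr1 had 0 counts in 3, 5 and 2 of the 20 libraries.

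**Figure D1:**
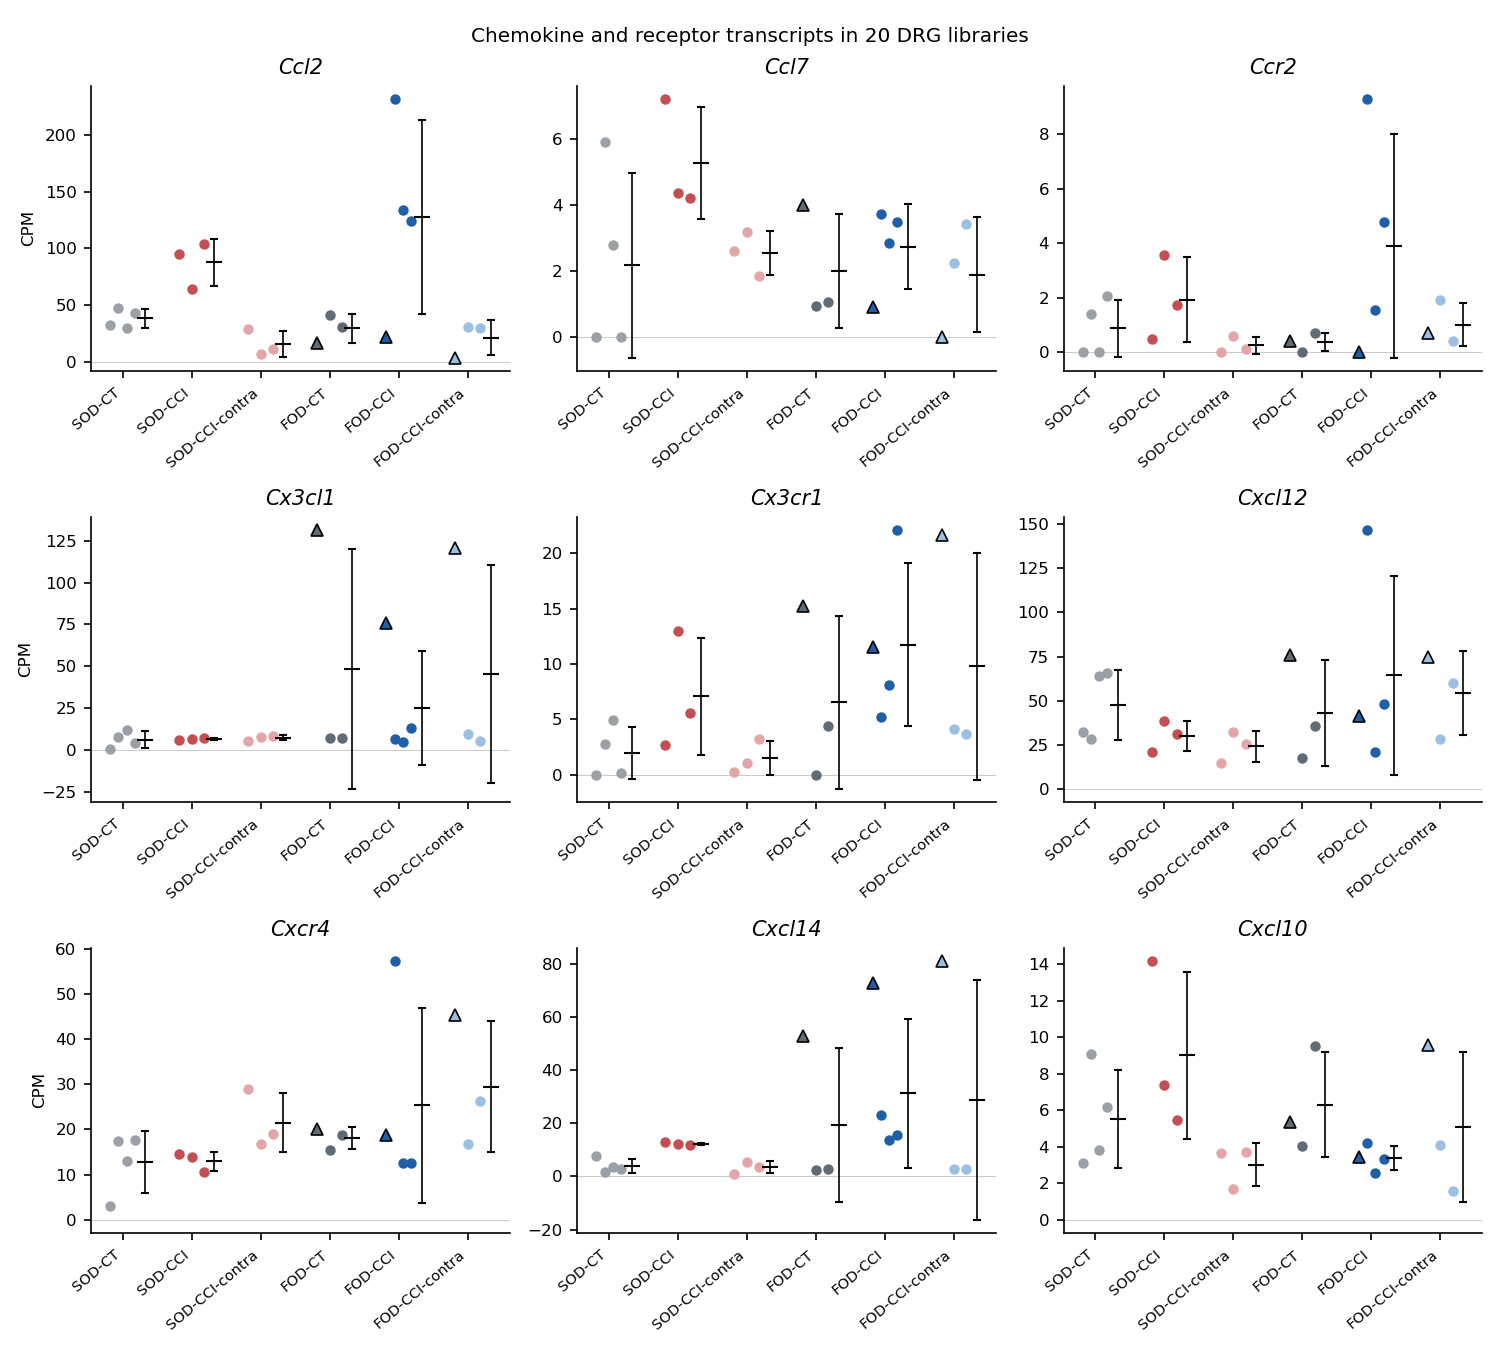
CPM of the 9 genes (vertical axes) in each of 20 libraries by group (horizontal axes); points are libraries, triangles with black edges are the 3 libraries with spinal cord glia transcripts, and the bar beside each group is the mean ± SD. Ccl2 was higher in the 3 SOD-CCI libraries than in the 4 SOD-CT libraries, and the highest Cx3cl1 and Cxcl14 points in the FOD groups were the triangles.

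Ccl2, the main attractant of monocytes, was the chemokine with the clearest difference between the injured and the contralateral side, at 6.15 times the contralateral level in the fit over both diets, and the difference was of like size on both diets. In the 3 SOD-CCI rats the left DRG had 95.3, 64.6 and 104 CPM of Ccl2, and the right DRG of the same rats had 28.8, 6.92 and 11.2 CPM. In the first 3 FOD-CCI rats the left DRG had 22.2, 232 and 134 CPM, and the right DRG had 3.68, 30.7 and 30.2 CPM. The left DRG was higher in 6 of 6 rats, by 3.31 to 9.33 times. The rat whose left library went against its injury label (FOD replicate 1) had the lowest level on both sides. Its left level was 6.04 times the right. The right library of this rat had 0 counts of Scn10a and Isl1 and more spinal cord glia transcripts (3446 CPM) than the left (2094 CPM). The sides of this rat thus also differed in tissue mixture, whose part in the ratio was not tested. Of all 14549 genes tested, 5.16% were higher on the left in every one of the 6 rats.

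With each rat as a block, the log2 fold change of Ccl2 from right to left was 2.67 (SE 0.33) in SOD-CCI rats, with an adjusted p of 0.0449 from edgeR's quasi-likelihood test. In FOD-CCI rats it was 2.57 (SE 0.33) with an adjusted p of 0.132, which missed the threshold of 0.1. The difference between the diets in this side effect was -0.11 (95% interval -1.12 to 0.90, adjusted p = 0.997). Averaged over both diets the log2 fold change was 2.62 (SE 0.23, adjusted p = 0.00517). Ccl2 was the single member of 8 tested that was called in SOD-CCI rats, where 0.131% of 14549 genes were called, and again in the average, where 0.962% were called. In FOD-CCI rats 0 of the 8 were called and 0.0137% of genes, while 2 of the 8 had an unadjusted p under 0.05 (6.96% of genes). In SOD-CCI rats 4 of the 8 had such a p (8.48% of genes), and in the average 3 of the 8 (11.6% of genes). DESeq2 called 3 members in SOD-CCI rats (Ccl2, Cxcl14 and Cx3cr1) and 3.2% of genes, 2 in FOD-CCI rats (Ccl2 and Cxcl14) and 1.81% of genes, and the same 3 as in SOD-CCI rats in the average with 5.38% of genes. Leaving out SOD-CCI replicate 1, 2 or 3 ended the SOD call (adjusted p = 0.101, 0.693 and 0.425), and leaving out the FOD replicate 1 rat brought the FOD value to an adjusted p of 0.0333. In the average the call held without any of the 6 rats, with adjusted p between 0.00085 and 0.060.

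**Figure D2:**
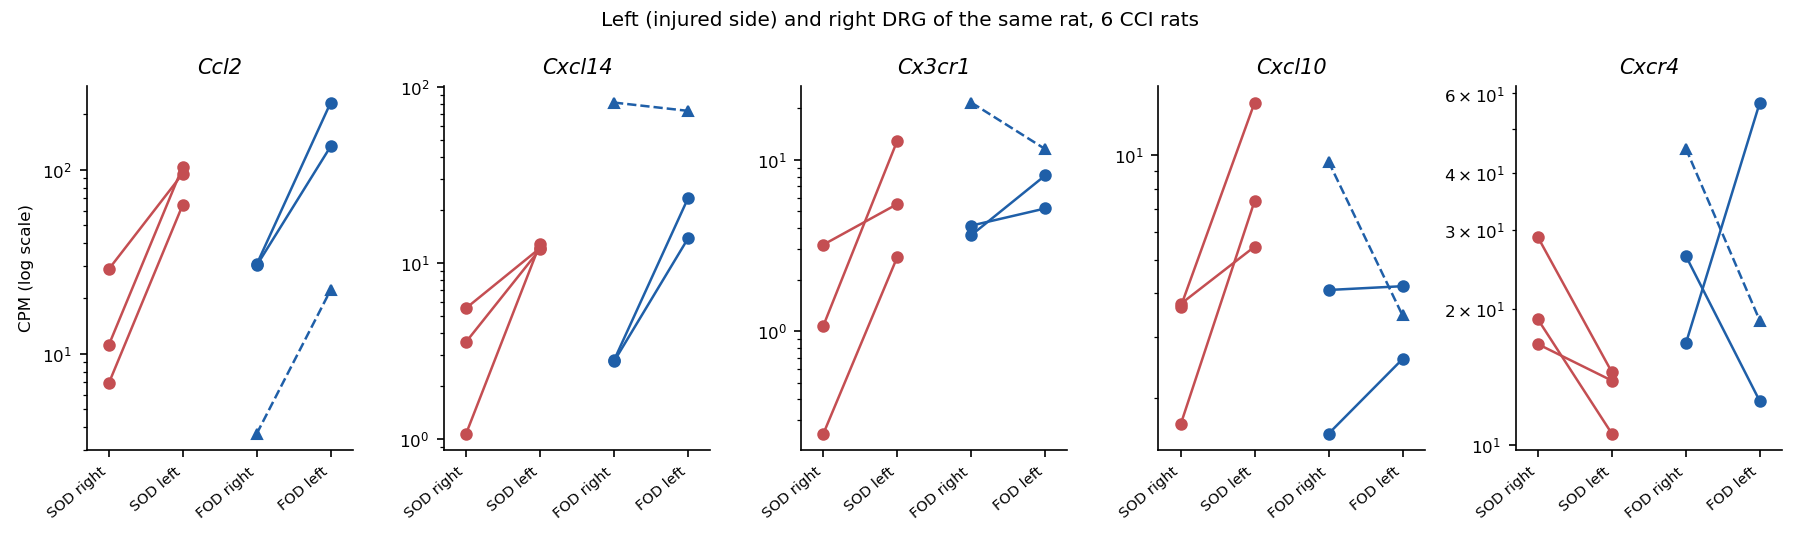
CPM on a log scale (vertical axes) in the right and left DRG of the same rat (horizontal axes) for Ccl2, Cxcl14, Cx3cr1, Cxcl10 and Cxcr4; each line is a rat, red for SOD and blue for FOD, and the dashed line with triangles is the FOD rat whose libraries held spinal cord glia transcripts. The Ccl2 lines rise in 6 of 6 rats, and the Cxcl14 lines in 5 of 6.

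The summed macrophage transcripts were higher on the left in 5 of 6 rats. The 10 listed macrophage genes, all above 1 CPM in the median library, summed to between 357 and 610 CPM in the left DRG of SOD-CCI rats and to between 69.3 and 161 CPM in the right. On the FOD diet the left sum was higher in 2 of 3 rats. The exception was the FOD replicate 1 rat, with 139 CPM on the left and 353 CPM on the right. Ccl2 was higher on the left in this rat. The part of these cells in the Ccl2 difference was not tested.

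Against sham DRG, Ccl2 was likewise higher after CCI, but the difference was not called on either diet. Sham SOD-CT DRG had 32.4, 47.9, 30.3 and 43.5 CPM of Ccl2, all below the 3 SOD-CCI libraries. Ranges were higher in SOD-CCI without overlap for 11.8% of 14484 genes. Sham FOD-CT DRG had 16.5, 41.6 and 31.1 CPM, and the FOD-CCI libraries had 22.2, 232, 134 and 124 CPM. The groups overlapped on the FOD diet through the library labelled FOD-CCI replicate 1, and 3 of the 4 FOD-CCI libraries exceeded every sham library. Without replicate 1 of FOD-CT and FOD-CCI, 14.9% of genes were higher in FOD-CCI than in FOD-CT with no overlap. The log2 fold change was 1.00 (SE 0.54, adjusted p = 0.414 by edgeR) for SOD-CCI against SOD-CT and 2.12 (SE 0.59, unadjusted p = 0.00289, adjusted p of 1.00 by edgeR) for FOD-CCI against FOD-CT. The diets differed in this change by 1.11 (95% interval -0.57 to 2.79, adjusted p = 0.894). The average over diets was 1.56 (SE 0.40, adjusted p = 0.144).

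In the SOD comparison, edgeR called 0 of 6 members tested and 0 of 14484 genes (0.0%), with 0 members and 13.8% of genes at an unadjusted p under 0.05. In the FOD comparison it also called 0 members and 0 genes (0.0%), with 1 member, Ccl2, and 4.52% of genes at an unadjusted p under 0.05. DESeq2 called 571 and 9 genes and 0 members. In the average, 0 members and 0.0% of genes were called by edgeR, with 1 member and 11.5% of genes at an unadjusted p under 0.05, and DESeq2 called 1 member, Ccl2 (adjusted p = 0.00795), among 476 genes (3.29%). Without replicate 1 of SOD-CT, FOD-CT and FOD-CCI, the left libraries with the most muscle or spinal cord transcripts, the average for Ccl2 was 1.62 with an adjusted p of 0.00287, and the FOD comparison gave 2.15 with an adjusted p of 0.0220. That fit called 214, 546 and 1197 genes in the SOD, FOD and average comparisons. Leaving out the library labelled FOD-CCI replicate 1 alone gave 2.47 (adjusted p = 0.0481) on the FOD diet and 1.74 (adjusted p = 0.00605) in the average.

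Ccl2 of the contralateral DRG was also set against sham DRG, and neither diet gave a call. The highest of the 3 SOD-CCI-contra libraries, at 28.8 CPM, lay below the lowest of the 4 SOD-CT libraries, at 30.3 CPM. Ranges were lower without overlap in 3.14% of 14007 genes, and the fitted log2 change was -1.44 (SE 0.67, adjusted p = 0.700 by edgeR). FOD-CCI-contra libraries ranged from 3.68 to 30.7 CPM against 16.5 to 41.6 CPM in FOD-CT, with a log2 change of -0.44 (SE 0.69, adjusted p of 1.00 by edgeR). The 10 macrophage genes summed to between 84.5 and 516 CPM in SOD-CT libraries, against 69.3 to 161 CPM in SOD-CCI-contra; their part was not tested.

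**Figure D3:**
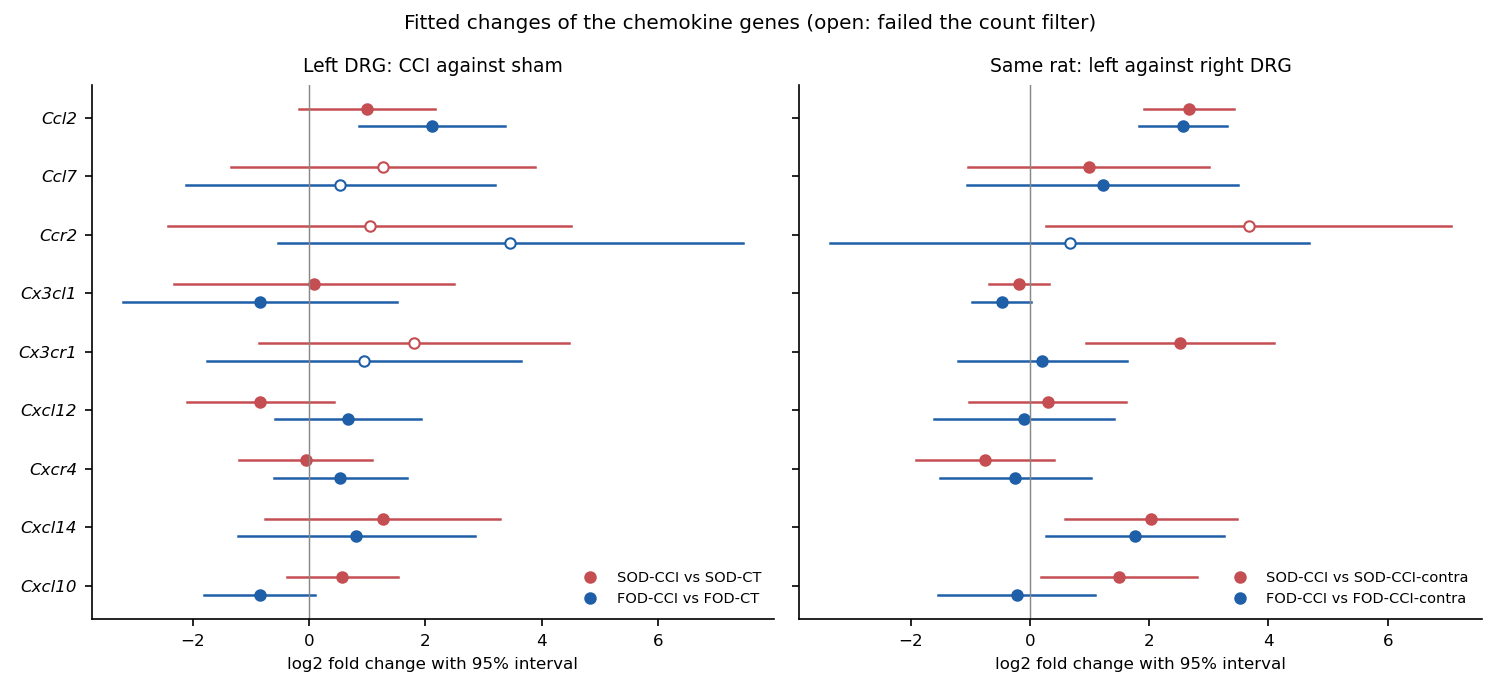
Fitted log2 fold changes (horizontal axes) of the 9 genes with 95% intervals, for CCI against sham in left DRG and for left against right DRG of the same rat; red is SOD, blue is FOD, and open points are genes that failed the count filter of that model. For Ccl2 both left-to-right intervals lie above 0, as does the FOD interval against sham.

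Ccl7, a second ligand of Ccr2, was a low transcript. It had 0, 5.91, 2.78 and 0 CPM in SOD-CT and 7.23, 4.38 and 4.21 CPM in SOD-CCI libraries, against 2.62, 3.19 and 1.85 CPM in SOD-CCI-contra. In FOD-CT it had 4.01, 0.933 and 1.06 CPM, in FOD-CCI 0.893, 3.73, 2.85 and 3.5 CPM, and in FOD-CCI-contra 0, 2.24 and 3.44 CPM. A count of 0 allows a level of up to 0.109 to 0.133 CPM in those libraries, for counting error only. The left side was higher in 5 of 6 rats, and the 4 FOD-CCI libraries, the one labelled replicate 1 included, all lay below the 3 SOD-CCI libraries, as did 9.28% of the 14484 genes that passed the count filter in left DRG. Ccl7 missed that filter, and its log2 difference between these groups was -0.90 (SE 1.24, adjusted p = 0.986 by edgeR) in the fit with no filter. Its average left-to-right log2 change of 1.10 (SE 0.67, adjusted p = 0.577 by edgeR) was not called.

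Ccr2, the receptor by which monocytes answer Ccl2, was the lowest of the 9 transcripts and failed the filter in all models. Its levels were 0, 1.40, 0 and 2.07 CPM in SOD-CT, 0.470, 3.57 and 1.73 CPM in SOD-CCI, and 0, 0.605 and 0.116 CPM in SOD-CCI-contra. In FOD-CT they were 0.414, 0 and 0.689 CPM, in FOD-CCI 0, 9.30, 1.52 and 4.77 CPM, and in FOD-CCI-contra 0.710, 1.90 and 0.395 CPM. With all libraries the groups overlapped in each comparison of left DRG. Without replicate 1 of FOD-CT and FOD-CCI the 3 remaining FOD-CCI libraries lay above both FOD-CT libraries, as they did for Ccl7 and Cx3cr1. The same held for 14.9% of the 14484 genes that passed the count filter in left DRG. A count of 0 allows up to 0.0875 to 0.132 CPM. In the fit with no filter, the left-to-right log2 change was 3.67 (SE 1.62) in SOD-CCI rats, with an unadjusted p of 0.0355 and an adjusted p of 0.773. The left side was higher in 5 of 6 rats, and the average over diets was 2.17 (SE 1.30, adjusted p = 0.844); the adjusted p was 0.0437 without the FOD replicate 1 rat and 1.00 without any of the other 5. The highest library, FOD-CCI replicate 2 at 9.30 CPM, also held the highest neutrophil and marrow sum (2395 CPM) and the highest macrophage sum (1750 CPM); their part was not tested.

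Cxcl14, a chemokine of epithelia and other tissues, stood at nearly the same level in the 3 SOD-CCI libraries, above the sham and contralateral ones of that diet, although edgeR called neither difference with all libraries. The 3 SOD-CCI libraries had 12.8, 12.1 and 12.0 CPM, the SOD-CT libraries 7.63, 1.83, 3.62 and 2.87 CPM, and the SOD-CCI-contra libraries 1.08, 5.54 and 3.57 CPM. All 3 injured libraries lay above all sham libraries of that diet. The left was above the right in all 3 SOD-CCI rats, as for 25.0% of 14549 genes. Against sham, ranges were higher without overlap for 2 of the 6 members tested, Ccl2 and Cxcl14, and for 11.8% of 14484 genes. In the FOD groups the libraries fell apart: FOD-CT had 52.9, 2.48 and 2.81 CPM, FOD-CCI 72.8, 23.2, 13.8 and 15.5 CPM, and FOD-CCI-contra 81.1, 2.80 and 2.76 CPM. In each of these groups the first, highest value was the library with spinal cord glia transcripts. The remaining 3 FOD-CCI libraries all exceeded the remaining sham and contralateral ones. The share of all genes that did so against the contralateral libraries was not determined. Set against sham without those libraries, 14.9% of genes were higher in FOD-CCI with no overlap, Ccl2 and Cxcl14 among them. All 4 FOD-CCI libraries also lay above the 3 SOD-CCI libraries, as did 5.92% of genes, with a log2 difference of 1.41 (SE 0.97, adjusted p = 0.862 by edgeR). Without FOD-CCI replicate 1 that difference was 0.57 (adjusted p = 0.986).

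The left-to-right log2 change of Cxcl14 was 2.03 (SE 0.64, unadjusted p = 0.0113, adjusted p = 0.385 by edgeR) in SOD-CCI rats and 1.76 (SE 0.66, unadjusted p = 0.0260, adjusted p = 0.634) in FOD-CCI rats. The average was 1.89 (SE 0.46, adjusted p = 0.159), and without the FOD replicate 1 rat it was 2.36 with an adjusted p of 0.00928. Against sham the log2 change was 1.27 (SE 0.94, adjusted p = 0.553) on the SOD and 0.82 (SE 0.95, adjusted p of 1.00) on the FOD diet, with an average of 1.04 (SE 0.67, adjusted p = 0.579). Without replicate 1 of SOD-CT, FOD-CT and FOD-CCI these became 2.11 (adjusted p = 0.0237), 2.72 (adjusted p = 0.0146) and 2.42 (adjusted p = 0.000681), all called. Leaving out single libraries moved the FOD value from -0.017, without FOD-CCI replicate 1, to 3.55, without FOD-CT replicate 1. Likewise the SOD value reached 2.11 (adjusted p = 0.595) without SOD-CT replicate 1, the library rich in muscle transcripts.

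The sequences before the starts of Cxcl14 and Cxcl10 are shown as the higher-after-injury and interferon-target members whose upstream letters hold stress or interferon motifs. Each is the 250 bases upstream of the RefSeq gene start in build GRCr8, plus strand, at chr17:8322900-8323149 for Cxcl14 and chr14:15988816-15989065 for Cxcl10. Capitals mark matches, on either strand, to the AP-1 motif TGANTCA (the site of Jun and Atf3 family proteins), the NF-kappaB motif (GGGAA, any base, TTCC) and the interferon-stimulated response element (GAAA, any pair of bases, GAAA), where N is any base.
Cxcl14: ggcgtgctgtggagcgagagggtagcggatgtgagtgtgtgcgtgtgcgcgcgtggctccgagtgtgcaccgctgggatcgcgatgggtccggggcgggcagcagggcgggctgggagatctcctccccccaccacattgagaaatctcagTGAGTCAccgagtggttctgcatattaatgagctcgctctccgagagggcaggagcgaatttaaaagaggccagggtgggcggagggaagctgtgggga
Cxcl10: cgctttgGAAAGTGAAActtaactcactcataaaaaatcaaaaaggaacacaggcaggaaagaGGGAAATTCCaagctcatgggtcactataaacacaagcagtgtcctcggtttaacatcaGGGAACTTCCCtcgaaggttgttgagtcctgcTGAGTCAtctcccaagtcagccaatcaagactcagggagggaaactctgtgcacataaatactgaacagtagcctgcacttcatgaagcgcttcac
The AP-1 letters begin 99 bases before the start of Cxcl14 and 96 before that of Cxcl10, and they also stood before Ccl7, so that 3 of the 8 members with an entry held them, against 6.34% of 33469 promoters of the same length. The interferon element and the NF-kappaB letters were found in 1 of the 8 members each, Cxcl10, and in 3.41% and 0.290% of all promoters. The second NF-kappaB match in Cxcl10 is read on both strands, 1 base apart. These matches describe letters and not bound sites.

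Cx3cl1, the membrane-tethered ligand fractalkine, divided the libraries by their content of spinal cord glia genes more than by diet or injury. In the 3 libraries with those transcripts it stood at 132 CPM (FOD-CT), 75.6 CPM (FOD-CCI) and 121 CPM (FOD-CCI-contra). In the other 17 libraries it ranged from 0.351 to 12.8 CPM, and the lowest of these was SOD-CT replicate 1, the library rich in muscle transcripts. The SOD-CCI libraries had 6.07, 6.51 and 6.80 CPM, within the SOD-CT range of 0.351 to 12.2 CPM.

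The log2 change of Cx3cl1 from SOD-CT to FOD-CT was 2.93 (SE 1.14, unadjusted p = 0.0226, adjusted p = 0.965 by edgeR), and it was -0.075 (adjusted p of 1.00) without replicate 1 of SOD-CT, FOD-CT and FOD-CCI. Between the sides Cx3cl1 was lower on the left in 5 of 6 rats, by a log2 change of -0.33 (SE 0.16, adjusted p = 0.454) in the average. This was the narrowest interval of the members, from -0.69 to 0.02.

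**Figure D4:**
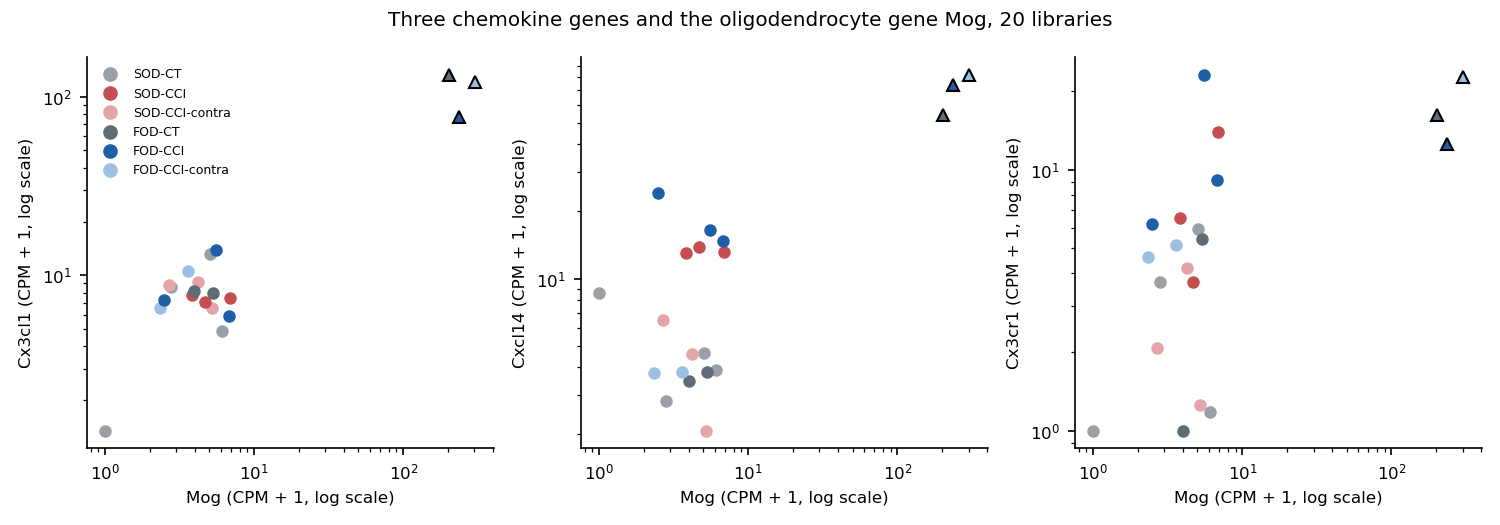
CPM + 1 of Cx3cl1, Cxcl14 and Cx3cr1 (vertical axes, log scale) against CPM + 1 of the oligodendrocyte gene Mog (horizontal axes, log scale) in 20 libraries coloured by group; triangles are the 3 libraries with spinal cord glia transcripts. Mog lies between 201 and 303 CPM in the triangles and at or below 5.83 CPM elsewhere, and Cx3cl1 and Cxcl14 are highest in the triangles.

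Cx3cr1, the fractalkine receptor of macrophages and microglia, had 0, 2.72, 4.91 and 0.182 CPM in SOD-CT, 2.71, 12.98 and 5.52 CPM in SOD-CCI, and 0.251, 1.08 and 3.20 CPM in SOD-CCI-contra libraries. In FOD-CT it had 15.2, 0 and 4.40 CPM, in FOD-CCI 11.6, 5.21, 8.12 and 22.1 CPM, and in FOD-CCI-contra 21.6, 4.13 and 3.63 CPM. The left DRG was higher in all 3 SOD-CCI rats, by 1.73 to 12.1 times, and in 2 of 3 FOD-CCI rats. A left level above the right in all 3 SOD-CCI rats was found for 25.0% of the 14549 genes tested. The FOD exception was the rat whose right library held more spinal cord glia transcripts (3446 CPM) than its left (2094 CPM).

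The log2 change of Cx3cr1 from right to left was 2.51 (SE 0.70, unadjusted p = 0.00566, adjusted p = 0.318 by edgeR) in SOD-CCI rats and 0.21 (SE 0.62, adjusted p = 0.960) in FOD-CCI rats. The difference between diets, -2.30 (95% interval -4.40 to -0.20), had an unadjusted p of 0.0351 and an adjusted p of 0.997 by edgeR. It was -1.77 (adjusted p of 1.00) without the FOD replicate 1 rat, and 0 of 8 members and 0.0% of genes were called for it. At an unadjusted p under 0.05 there were 1 of the 8 members and 2.91% of genes, and DESeq2 called 0 members and 60 genes. The average over diets was 1.36 (SE 0.47, adjusted p = 0.302). In the same SOD-CCI libraries the macrophage receptor Csf1r had 52.97, 94.8 and 70.0 CPM on the left and 5.17, 17.9 and 26.9 CPM on the right. The microglial gene Sall1, at 24.7 to 71.6 CPM in the 3 libraries with spinal cord transcripts, did not exceed 3.66 CPM in the other 17. The sums of all 5 listed microglia genes overlapped, at 70.8 to 158 CPM in the 3 libraries and 7.02 to 132 CPM in the other 17. The 132 CPM belonged to FOD-CCI replicate 4, which also had the highest Cx3cr1 (22.1 CPM). The part of either cell type in the Cx3cr1 values was not tested.

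Cxcl10, a ligand of Cxcr3, was higher on the injured side in SOD-CCI rats and lower in FOD-CCI than in SOD-CCI DRG, though neither edgeR nor DESeq2 called either difference. SOD-CCI libraries had 14.2, 7.38 and 5.46 CPM and SOD-CCI-contra libraries 3.66, 1.68 and 3.73 CPM. The left was above the right in all 3 SOD-CCI rats, as for 25.0% of the 14549 genes tested. SOD-CT libraries, at 3.12, 9.06, 3.83 and 6.17 CPM, overlapped the injured ones. In FOD-CT the values were 5.38, 4.02 and 9.51 CPM, in FOD-CCI 3.46, 4.20, 2.59 and 3.33 CPM, and in FOD-CCI-contra 9.58, 4.09 and 1.58 CPM. All 4 FOD-CCI libraries lay below all 3 SOD-CCI libraries, whereas the sham groups of both diets overlapped.

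Between the injured groups the log2 change of Cxcl10 was -1.35 (SE 0.45, unadjusted p = 0.00904, adjusted p = 0.859 by edgeR). In this comparison of FOD-CCI with SOD-CCI, 0 of 6 members and 0.0% of genes were called, and Cxcl10 was the 1 member at an unadjusted p under 0.05, against 5.40% of genes. DESeq2 called 2 genes and 0 members. Ranges without overlap and lower in FOD-CCI were found for 9.28% of 14484 genes. The change from sham to CCI was 0.57 (SE 0.44, adjusted p = 0.573) on the SOD and -0.84 (SE 0.45, adjusted p of 1.00) on the FOD diet. The difference between these, -1.41 (95% interval -2.76 to -0.06), had an unadjusted p of 0.0415 and an adjusted p of 0.894, with 0 members and 0.0% of genes called and 1 member and 5.01% of genes at an unadjusted p under 0.05. DESeq2 called 0 members and 2 genes for this interaction. From right to left the change was 1.5 (SE 0.58, adjusted p = 0.505) in SOD-CCI and -0.22 (SE 0.58, adjusted p = 0.953) in FOD-CCI rats. The FOD value turned to 0.36 without the FOD replicate 1 rat, the one FOD rat in which Cxcl10 was lower on the left.

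The 11 listed interferon response genes, to which Cxcl10 does not belong, summed to between 364 and 507 CPM in SOD-CCI, 207 to 257 CPM in SOD-CCI-contra, 157 to 460 CPM in SOD-CT and 276 to 469 CPM in FOD-CCI libraries. Unlike Cxcl10, their sums overlapped between SOD-CCI and FOD-CCI.

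Cxcl12, a stromal ligand, and Cxcr4, its receptor on leukocytes, glia and neurons, were called in no comparison by edgeR or DESeq2. Cxcl12 had 32.4, 28.1, 63.8 and 65.8 CPM in SOD-CT, 20.8, 38.2 and 31.0 CPM in SOD-CCI, and 14.6, 32.0 and 25.6 CPM in SOD-CCI-contra libraries. In FOD-CT it had 76.1, 17.5 and 35.8 CPM, in FOD-CCI 41.5, 147, 20.9 and 47.8 CPM, and in FOD-CCI-contra 74.9, 28.1 and 59.9 CPM. The group ranges overlapped in all 7 comparisons between groups of different rats. The smallest edgeR p values were those of SOD-CCI-contra against SOD-CT, with a log2 change of -1.12 (SE 0.48, unadjusted p = 0.0364, adjusted p = 0.700 by edgeR), and of FOD-CCI-contra against SOD-CCI-contra, with 1.2 (SE 0.51, unadjusted p = 0.0343, adjusted p = 0.697). In each of these, 0 of 6 members and 0.0% of 14007 genes were called, 1 of 6 members had an unadjusted p under 0.05 (7.06% and 7.10% of genes), and DESeq2 called 0 members and 52 and 58 genes.

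Cxcr4 had 3.03, 17.5, 13.1 and 17.6 CPM in SOD-CT, 14.5, 13.9 and 10.6 CPM in SOD-CCI, and 28.8, 16.7 and 19.0 CPM in SOD-CCI-contra libraries. In FOD-CT it had 20.2, 15.5 and 18.7 CPM, in FOD-CCI 18.9, 57.3, 12.5 and 12.7 CPM, and in FOD-CCI-contra 45.3, 16.8 and 26.2 CPM. It was lower on the injured side in 5 of 6 rats, the opposite of Ccl2, with an average log2 change of -0.50 (SE 0.38, adjusted p = 0.656 by edgeR). The share of all genes with 5 of 6 rats in a given direction was not determined, for Cxcr4 or for the other members with such a count. The exception was FOD-CCI replicate 2, which had the highest Cxcl12 and the highest Cxcr4 of all 20 libraries. That library also had the highest Mpo, an enzyme of neutrophils and their marrow precursors, at 146 CPM against at most 26.1 CPM elsewhere. Without that rat the average was -0.97 (adjusted p = 0.103). Between FOD-CCI and SOD-CCI the log2 change was 1.04 (SE 0.54, adjusted p = 0.859) for Cxcr4 and 1.18 (SE 0.59, adjusted p = 0.859) for Cxcl12, and these fell to 0.23 and 0.35 without FOD-CCI replicate 2.

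For the remaining comparisons, of the sham groups between diets and of contralateral with sham DRG on the FOD diet, edgeR called 0 of 6 members and 0 genes (0.0% of 14484 and 0.0% of 14007). In the sham groups 1 member, Cx3cl1, had an unadjusted p under 0.05, as did 3.39% of genes, and DESeq2 called 0 members and 0 genes. On the FOD diet no member of the contralateral comparison had such a p, against 1.71% of genes, and DESeq2 called 0 members and 0 genes. Over the members tested, the median log2 change was 0.33 in SOD-CCI against SOD-CT and 0.61 in FOD-CCI against FOD-CT, beside -0.01 and 0.01 for all genes. Left against right it was 1.24 in SOD-CCI and 0.06 in FOD-CCI rats over 8 members, beside 0.02 and 0.04 for all genes. The FOD rats included replicate 1, whose libraries held spinal cord glia transcripts and whose left library went against its injury label. Cxcl14, Cx3cr1 and Cxcl10 were lower on the left in that rat and higher in the other FOD rats. In FOD rats the left was higher in 3 of 3 for Ccl2, 2 of 3 for Ccl7, 1 of 3 for Cxcl12 and Cxcr4, and 0 of 3 for Cx3cl1. The shares of all genes with such counts in FOD rats are not given here, so the counts only describe these genes.

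The rest of the family was mostly low in these DRG. Of 30 other chemokine ligands, 24 had a median at or below 1 CPM and 2 had no counts in any library, and of 21 other receptors 14 and 3. The highest per length were the scavenging receptor Ackr1 (34.4 ± 11.9 FPKM, SD, n = 20), Ccl6 (32.4 ± 22.8 FPKM), Cxcl16 (15.3 ± 8.94 FPKM), the B cell attractant Cxcl13 (14.1 ± 19.2 FPKM) and the platelet chemokine Pf4 (13.7 ± 16.5 FPKM). Of the 6 ligands and 7 receptors tested between the sides, edgeR called 0 in either diet. In SOD-CCI rats 3 of the 6 ligands had an unadjusted p under 0.05, as did 8.48% of all genes, and a higher left level: Cxcl16 (log2 change 1.57, adjusted p = 0.151), Cxcl13 (2.65, adjusted p = 0.255) and Ccl6 (1.45, adjusted p = 0.385, all by edgeR). In FOD-CCI rats, with 6.96% of all genes at such a p, a single receptor had one, the Cxcl12 scavenger Ackr3, which was lower on the left (-0.97, adjusted p = 0.567).

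Cxcl13 had 17.9, 23.7 and 31.8 CPM in SOD-CCI libraries against 2.22, 2.08 and 10.3 CPM in the right DRG of the same rats. In FOD-CCI it had 0.0744, 21.5, 23.3 and 98.8 CPM against 1.77, 22.4 and 24.6 CPM in FOD-CCI-contra. The left was above the right in all 3 SOD-CCI rats, as for 25.0% of 14549 genes. On the FOD diet the left was lower than the right in all 3 rats, but in replicates 2 and 3 the sides were close. They had 21.5 against 22.4 CPM and 23.3 against 24.6 CPM. The share of all genes lower on the left in all 3 FOD rats is not given here.

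Likeness between genes was described by Spearman's rho of log2 CPM over the 20 libraries, among 14435 genes with enough counts, without a test; the libraries share their group structure and tissue mixture. Closest to Ccl2 were Sema3c (rho 0.92), an unnamed transcript (0.92) and Tph2 (0.91). Closest to Cx3cr1 were Rin2 (0.92), Lfng (0.91) and Gpr34 (0.90), and closest to Ccr2 were Clec4a3 (0.87), Tuba1c (0.86) and the leukocyte gene Ptprc (0.85). Cxcl14 ran with Thap4 (0.92), Gfap (0.90) and LOC102556092 (0.87), and Cx3cl1 with Nfatc2 (0.89), Slc2a13 (0.87) and Abat (0.86). Ccl7 was closest to Rnf19b (0.87), Gnai2 (0.87) and Tapbp (0.84), and Cxcl12 to Als2cl (0.84), Srgn (0.83) and Glul (0.83). Cxcr4 was closest to Rnf167 (0.85), LOC100365289 (0.83) and Lix1 (0.83), and Cxcl10 to Uggt2 (0.76), LOC681100 (0.73) and Parp9 (0.72). Without the 3 libraries with spinal cord transcripts, Ripk3 (0.96) came first for Ccl2, Csf1r (0.90) was second for Cx3cr1, and Gfap was no longer among the first 3 for Cxcl14.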

How the data were processed

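RNA of 20 DRG samples was sequenced after poly-A selection. The authors used fastp for trimming, HISAT2 for alignment and featureCounts 1.5.0-p3 for counting, and deposited whole-number counts per gene without pooling. They also deposited FPKM values; in each library these equalled the count divided by gene length and a constant, which was 0.628 to 1.13 times the library total, so FPKM is not scaled to plain totals. The genome build and the use of strand are not given in the sources used here. The study left out 2 planned samples before library preparation.

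Samples were grouped by their labels, and 0 count columns were left unassigned. Members and gene lists were chosen with earlier results of these data known. The rule for named genes took all 9 members in every comparison, of other chemokines those called or the up to 5 with the smallest p and the 5 highest in FPKM, and for each member the 3 most similar genes. Counts were analysed in R 4.3.3 with edgeR 4.0.16 (TMM, two-sided quasi-likelihood test) and DESeq2 1.42.0 (Wald test, as an alternative). The filter asked for 10 or more counts in 90% or more of the libraries of a model, which left 14484 genes in the 14 left libraries (group means), 14549 in 12 libraries of 6 rats (rat as a block) and 14007 in 13 sham and contralateral libraries. Calls needed a Benjamini-Hochberg adjusted p no higher than 0.1 together with a change of 1.2-fold or more. Ccl7, Ccr2 and Cx3cr1 failed the filter in left DRG and Ccr2 failed it throughout; their fits come from all genes with a count. The averages over diets were added after the data were seen.

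Left and right DRG of a rat share the animal: deviations from the group means correlated with r = 0.15 to 0.50 in the 6 pairs. Same-numbered FOD-CT and FOD-CCI libraries (r = 0.25 to 0.49) and FOD-CT and FOD-CCI-contra libraries (r = 0.25 to 0.69) also deviated together. For same-numbered SOD-CT and SOD-CCI libraries r was -0.07 to 0.07. Between SOD-CT and SOD-CCI-contra libraries it ranged from -0.10 to 0.44, with a median of 0.20. All 24 pairs of libraries within a group differed beyond sampling noise. Intervals are 95%, and limits for a count of 0 (3 counts) cover counting error only. Depth was 22547190 to 54437581 counts per library. The fitting steps were tested on data simulated with a smaller spread than that of these libraries, whose common dispersion in edgeR was 0.140 to 0.242. That test therefore does not show how many changes the fits find at the present spread. Promoter sequences are from RefSeq (GRCr8), matched by symbol for 8 of 9 members; Ccl2 was not among them.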

Additional observations from a re-analysis of the deposited data

Results flagged for a closer look

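Each member was checked in the 2 groups of 4 libraries, 18 checks in all. A library was flagged if its gap to its nearest neighbour exceeded the 95% critical value of Dixon's test. Chance alone flags about 5% of groups where values are normally distributed, which was not tested for these CPM values. The members share the same libraries, so the checks are not independent of each other. In FOD-CCI, Cx3cl1 stood at 75.6 CPM in the library labelled replicate 1 against 4.90 to 12.8 CPM in the others. Cxcl14 stood at 72.8 CPM in that same library against 13.8 to 23.2 CPM. Cxcr4 stood at 57.3 CPM in FOD-CCI replicate 2 against 12.5 to 18.9 CPM. The first library held transcripts of spinal cord glia and the second those of neutrophils and marrow, as described above, and the part of either in these values was not tested.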

How the results depend on the processing

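Of 537 recomputed log2 changes of members, 528 kept their direction. Without the count filter, edgeR called 224 genes (1 member) in the average of CCI against sham, 220 (2) between the sides in SOD-CCI rats, 61 (1) in FOD-CCI rats, 3 for the difference of those and 456 (2) in their average. With DESeq2's size factors the average of CCI against sham gave 24 genes. DESeq2's Wald test called 571 genes (SOD-CCI against SOD-CT), 9 (FOD-CCI against FOD-CT), 2 (FOD-CCI against SOD-CCI), 2 (diet by injury) and 476 (1 member, average), 466 (3), 264 (2), 60 and 783 (3) for the same 4 side comparisons, and 52 and 58 for SOD-CCI-contra against SOD-CT and FOD-CCI-contra against SOD-CCI-contra. With the replicate number as a block, 1 gene was called in SOD-CCI against SOD-CT and 1 in the average, no member among them. With no block for the rat, the sides gave 0 genes and 0 members (SOD), 0 (FOD) and 10 genes and 0 members (average), Cx3cr1 on the FOD diet turned to -0.18 and the diet difference of Ccl2 to 0.16. Without replicate 1 of SOD-CT, FOD-CT and FOD-CCI, 214 (1), 546 (2) and 1197 (2) genes were called in SOD, FOD and average, and Cx3cl1 turned to -0.075 between the sham groups. Leaving out single libraries gave 0 to 48 genes (SOD-CCI against SOD-CT), 0 to 44 with 0 to 1 members (FOD-CCI against FOD-CT) and 0 to 513 with 0 to 1 (average). Leaving out single rats gave 0 to 470 with 0 to 2 members, 0 to 134 with 0 to 1, and 8 to 1184 with 1 to 2 (SOD, FOD, average). The highest counts of CCI against sham on each diet and of the sides came without FOD-CCI replicate 1. Cxcl14 in FOD-CCI against FOD-CT ranged from -0.017 to 3.55, and between the sides the FOD values of Cx3cr1 ranged from -0.25 to 0.74 and of Cxcl10 from -0.67 to 0.36, and the diet difference of Ccl2 from -0.60 to 0.20. The cause of these changes was not tested. Depth bounds the level of Ccl7, Ccr2 and Cx3cr1 in libraries with a count of 0 to the limits given above.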
